A study of Mus musculus with 9 samples.

Results

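Potassium channel subunits were followed in mouse brain 72 hours after intracerebral haemorrhage (ICH), a bleed into the brain tissue, with and without pterostilbene (PTE), a dimethylated analog of the plant stilbenoid resveratrol. The set held the 91 genes, of 36346 in the table, whose symbol is Kcn, a subfamily code in letters and a number. Kcnj10 also fits that pattern and was left out, so 91 of 92 matching genes were used. All mice were wild-type C57BL/6, in 3 groups of 3 mice: ICH+PTE, ICH, and sham as the control treatment. Each mouse gave 1 poly(A)-selected brain library, 9 in all, and is called here by group and replicate number (ICH 2). How ICH was made, how much PTE was given and by which route, the age and sex of the mice, and which part of the brain was taken are not stated in the labels used here.

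Potassium channels let potassium leave the cell, which sets the resting potential, ends the action potential and spaces the next one. Voltage-gated (Kv) channels are tetramers of alpha subunits, to which silent subunits, cytoplasmic beta subunits and calcium sensors can be added. Inward rectifiers (Kir) and two-pore channels (K2P) carry resting currents in neurons, glia and vessel cells, and calcium- or sodium-activated channels open when those ions rise inside the cell. Most of these genes are used by neurons, and a few are known chiefly from microglia and macrophages, vessel mural cells or the choroid plexus.

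Values are FPKM (fragments mapped per transcript length and library size), as deposited. Differences are on the log2(FPKM + 0.5) scale with their SE, a scale that understates the change of low genes. A gene was called when limma's moderated test across 15376 genes gave a Benjamini-Hochberg adjusted p under 0.05, and adjusted p values below are from that test. Of the 91 genes, 67 reached 1 FPKM in at least 3 libraries and were tested, and 24 were not. Kcnn4 was the only tested member with libraries at 1 FPKM or more in 1 group alone, the ICH group, so that its place among the tested genes follows from its being high there. Other members passed with 1 group left out. Kcne4 had no sham library at 1 FPKM, and Kcne2 had no ICH+PTE library at 1 FPKM. Kcna3, Kcnb2, Kcng2, Kcnh5, Kcnh7, Kcnj6, Kcnk4 and Kcnt2 had no ICH library at 1 FPKM. Their place among the tested genes follows from the groups where they are higher.

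The libraries differed in ways that touch several results below. Mitochondrially encoded transcripts took 25.5 to 28.9% of summed FPKM in ICH+PTE, 13.6 to 16.7% in ICH and 21.7 to 22.9% in sham. Fabp2, a gene of the intestinal epithelium, stood at 0.975, 1.02 and 1.68 FPKM in ICH+PTE, 0, 0.122 and 0 in ICH and 0, 0 and 0 in sham. The trace of this gene was found mainly in the ICH+PTE libraries, but the list it comes from did not follow it. The 24 listed genes of that epithelium summed to 14.76, 16.25 and 24.14 FPKM in ICH+PTE, 27.25, 35.29 and 31.46 in ICH and 11.79, 17.24 and 17.09 in sham, highest in ICH. Markers of the choroid plexus summed to 476, 36.9 and 44.4 FPKM in ICH+PTE, 949.5, 68.5 and 74.9 in ICH and 1036, 316 and 91.7 in sham. The sums were highest in libraries 1 of ICH+PTE and ICH and libraries 1 and 2 of sham. Those high sums were mostly Ttr, at 389 FPKM in ICH+PTE 1, 880.7 in ICH 1, 932.7 in sham 1 and 250.7 in sham 2. Folr1, Kl, Otx2, Aqp1, Slc4a5, Enpp2 and Sostdc1 were also highest in library 1 of each group. Clic6 and Prlr were not highest there in every group. The part of these differences in the results was not tested.

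Potassium channel genes were mostly lower after ICH. Of the 67 tested, 53 (79.1%) were called lower and 5 (7.46%) higher. Of all tested genes, 63.7% were called, 32.1% lower and 31.6% higher. The median log2 difference was -1.18 over the members and -0.02 over all tested genes. The 3 ICH values lay wholly below the 3 sham values for 53 tested members and wholly above for 5, against 37.8% and 35.7% of all tested genes. Summed over the 91 genes, expression was 541, 439 and 522 FPKM in ICH+PTE, 347, 262 and 294 in ICH and 663, 643 and 721 in sham. The 3 ICH sums were the lowest and the 3 sham sums the highest, with no overlap between any of the 3 groups.

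The fall ran alongside that of neuron markers. The 16 pan-neuronal markers summed to 1504, 1142 and 1312 FPKM in ICH+PTE, 782, 602 and 632 in ICH and 1449, 1437 and 1494 in sham, and 16 of 16 fell in ICH, beside 32.1% of all tested genes, with a median log2 difference of -1.28. In bulk tissue, fewer cells of a type and less RNA per cell cannot be told apart. When haemoglobin and mitochondrial genes were removed and the libraries rescaled, the median of all tested genes moved by more than 0.1, to -0.29, and the split over all genes became 3440 higher and 7099 lower, in place of 4862 and 4936. On TPM the split was 4506 and 6692, with a median of -0.19. The members' counts were 4 higher and 54 lower in the first of these settings and 6 and 57 in the second. Of the 58 calls, 54 were made without each library in turn.

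**Figure D1:**
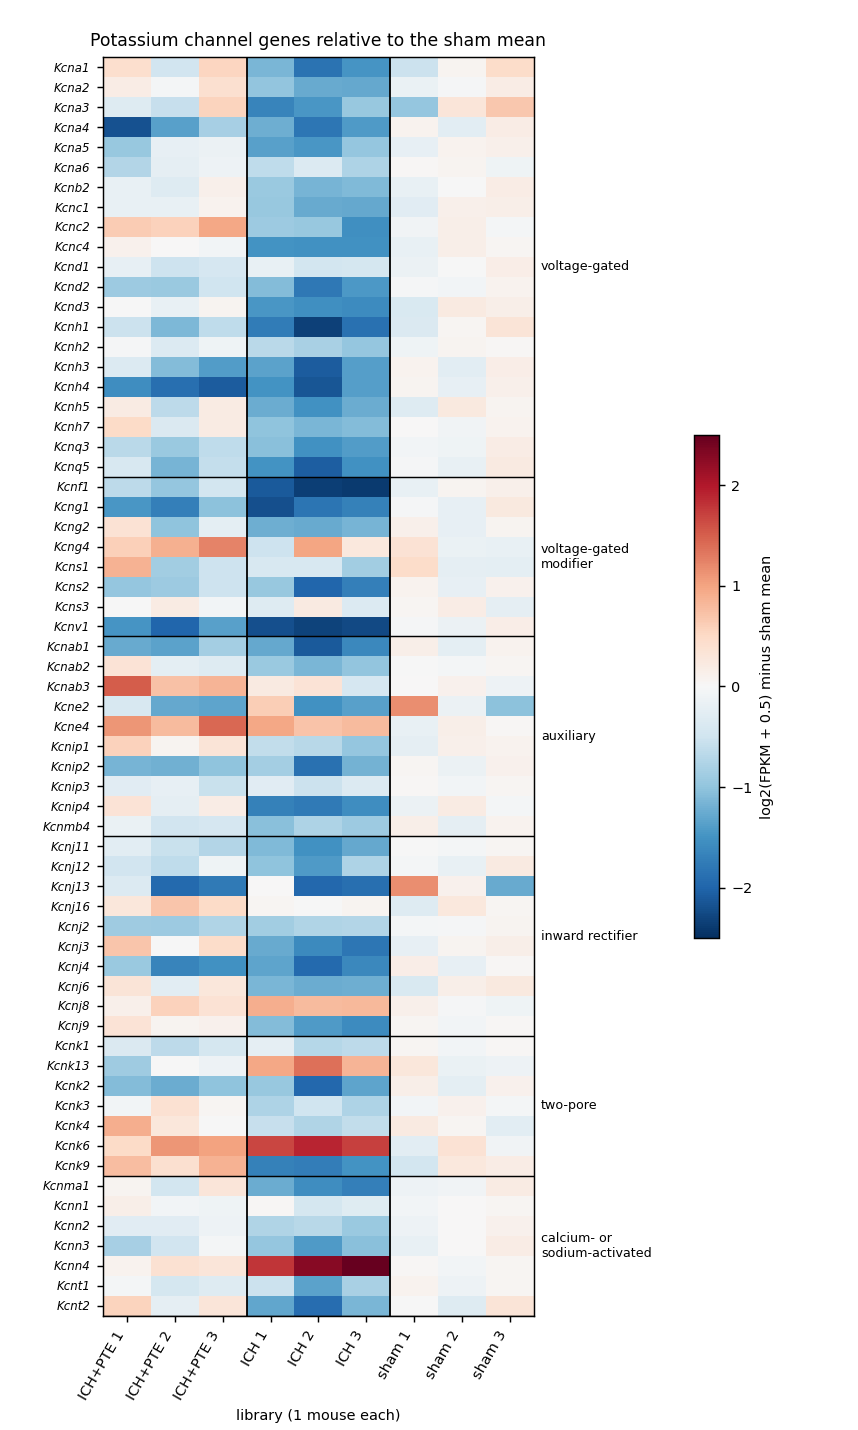
Each row is 1 of 63 of the 67 tested potassium channel genes, grouped by class, and each column 1 library in the order ICH+PTE, ICH, sham. Colour is log2(FPKM + 0.5) minus the gene's sham mean. Blue fills most of the ICH columns, and Kcnn4, Kcnk6, Kcnk13, Kcnj8 and Kcne4 stand out in red there.

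In ICH+PTE most members stood above ICH. Of the 67 tested, 42 (62.7%) were called higher than in ICH and 4 (5.97%) lower. Of all tested genes, 56.9% were called, 26.4% higher and 30.5% lower. The median log2 difference was 0.66 over the members and -0.02 over all tested genes. Groups did not overlap for 41 tested members that were higher and for 4 that were lower, against 30.3% and 34.5% of all tested genes. This comparison and the one above share the ICH libraries, which enter them with opposite sign. Removing haemoglobin and mitochondrial genes turned the split over all genes to 6161 higher and 3111 lower, in place of 4065 and 4683, with a median of 0.22, and quantile normalization gave 4886 and 4089. The members then numbered 49 higher and 4 lower in the first setting and 45 and 4 in the second. Without each library in turn, 39 of the 46 calls were made every time.

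Against sham, ICH+PTE left fewer differences, and these went in both directions. Of the 67 tested members, 19 (28.4%) were called lower in ICH+PTE than in sham and 6 (8.96%) higher, beside 12.1% and 11.3% of all tested genes, of which 23.4% were called in all. The share called higher was thus close to that of all tested genes. The median log2 difference was -0.17 over the members and -0.03 over all tested genes. Groups did not overlap for 24 members that were lower and 10 that were higher, against 20.7% and 18% of all tested genes. On TPM, which moved the median of all tested genes to -0.16, the split over all genes was 1374 higher and 2935 lower, in place of 1736 and 1867, and 3 members were called higher and 23 lower.

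The 19 genes called lower in ICH+PTE than in sham were all lower in ICH than in sham too; both comparisons share the sham libraries. They include Kcna4, Kcnab1, Kcnd2, Kcnf1, Kcng1, Kcnh1, Kcnh3, Kcnh4, Kcnip2, Kcnj2, Kcnj4, Kcnj11, Kcnk1, Kcnk2, Kcnq3, Kcnq5, Kcns2 and Kcnv1. The 6 called higher include Kcnab3, Kcnc2, Kcne4, Kcnk6 and Kcnk9. Without each library in turn, 15 of these 25 calls were made every time, and 10 depended on 1 library or more.

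Of these, 8 are given with the log2 difference and adjusted p in each setting that ended the call, where leaving out all 3 libraries numbered 1 is a setting chosen after seeing the data. Kcnh1 was not called without ICH+PTE 2 (-0.59, 0.0967), sham 2 (-0.74, 0.0874), sham 3 (-0.61, 0.116) or when every gene above 0 was tested (-0.77, 0.0979). For Kcnh3 the call was lost without ICH+PTE 2 (-0.87, 0.0868), ICH+PTE 3 (-0.72, 0.0937), sham 1 (-0.90, 0.0815), sham 3 (-0.86, 0.103) or when every gene above 0 was tested (-0.94, 0.107). Kcnj11 lost its call without ICH+PTE 2 (-0.49, 0.0714), ICH+PTE 3 (-0.41, 0.0813), sham 1 (-0.52, 0.0626), sham 2 (-0.53, 0.0681), sham 3 (-0.48, 0.092) or when every gene above 0 was tested (-0.51, 0.0719). That of Kcnk1 was lost without ICH+PTE 2 (-0.40, 0.0868), ICH+PTE 3 (-0.51, 0.051), sham 1 (-0.47, 0.0722), sham 2 (-0.52, 0.0606), sham 3 (-0.48, 0.0831), when every gene above 0 was tested (-0.49, 0.0745) or after quantile normalization (-0.39, 0.0715). Kcnq5 dropped out without ICH+PTE 2 (-0.49, 0.109), ICH+PTE 3 (-0.77, 0.0574), ICH 3 (-0.71, 0.0524), sham 1 (-0.73, 0.0795), sham 2 (-0.81, 0.0574), sham 3 (-0.60, 0.133), when every gene above 0 was tested (-0.71, 0.116), after quantile normalization (-0.68, 0.0538) or with all 3 libraries numbered 1 left out (-0.89, 0.0539). So did Kcns2 without ICH+PTE 1 (-0.71, 0.0931), ICH+PTE 2 (-0.74, 0.098), ICH 3 (-0.80, 0.053), sham 1 (-0.75, 0.0964), sham 2 (-0.90, 0.0597), sham 3 (-0.74, 0.116), when every gene above 0 was tested (-0.80, 0.117) or with array weights (-0.65, 0.0802). Among the higher genes, Kcnc2 was not called without ICH+PTE 3 (0.60, 0.0502), sham 1 (0.68, 0.0502), sham 3 (0.70, 0.0554), when every gene above 0 was tested (0.72, 0.0538), on TPM (0.62, 0.0568) or with all 3 libraries numbered 1 left out (0.73, 0.0588). Kcnk9 missed the threshold without ICH+PTE 1 (0.63, 0.0757), ICH+PTE 3 (0.59, 0.0933), sham 1 (0.45, 0.0781), sham 3 (0.78, 0.05), when every gene above 0 was tested (0.68, 0.099), on TPM (0.58, 0.116), with haemoglobin and mitochondrial genes removed (0.66, 0.0537), with array weights (0.53, 0.0642), with the third group out of the fit (0.68, 0.065) or with all 3 libraries numbered 1 left out (0.40, 0.147). Every one of these values had the sign of the full comparison.

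Marker lists for neurons of different brain regions did not all move the same way in ICH+PTE. The 14 markers of striatal projection neurons summed to 479, 588 and 635 FPKM in ICH+PTE, 952, 441 and 674 in ICH and 1746, 1278 and 1601 in sham. All 14 fell in ICH against sham and all 14 were also lower in ICH+PTE than in sham, with a median log2 difference of -1.54 in the second comparison. The 11 markers of cortical and hippocampal excitatory neurons, 10 of them tested, summed to 600.5, 352 and 339 FPKM in ICH+PTE, 206, 136 and 185 in ICH and 511, 386 and 487 in sham, with 8 called higher in ICH+PTE than in ICH and 1 higher in ICH+PTE than in sham. The 11 markers of thalamic and other subcortical neurons, 9 of them tested, summed to 94.3, 88.3 and 141 FPKM in ICH+PTE, 44.6, 42.0 and 40.4 in ICH and 62.5, 65.4 and 53.0 in sham, and 6 were called higher in ICH+PTE than in sham. In ICH against sham 4 were called lower and 2, Prkcd and Lef1, higher, with a median log2 difference of 0.33. The lower ICH sum came mainly from Calb2 (mean 3.76 FPKM in ICH and 21.8 in sham) and Zic1 (3.62 and 14.8). GABAergic interneuron markers summed to 312, 314 and 329 FPKM in ICH+PTE, 386, 290.2 and 248 in ICH and 454, 394 and 396 in sham. Of the 9 tested, 6 were called lower in ICH than in sham and 1, Pvalb, higher, with a median log2 difference of -1.15. In ICH+PTE, 4 were called higher than in ICH and 3 lower than in sham. Of all tested genes, 32.1% were called lower and 31.6% higher in ICH than in sham. In ICH+PTE, 26.4% were called higher than in ICH, and 11.3% higher and 12.1% lower than in sham. The 1 cortical and hippocampal marker higher in ICH+PTE than in sham was thus a share close to that of all genes. The part of these regional markers in the channel results was not tested.

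**Figure D2:**
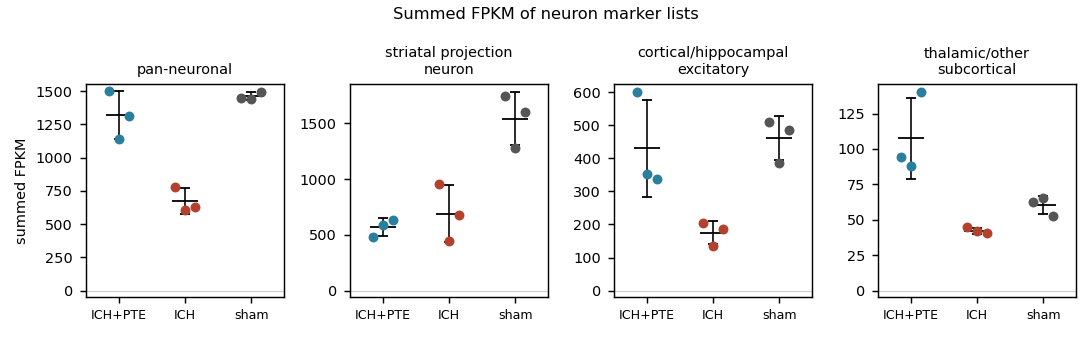
Summed FPKM of 4 neuron marker lists in each library, with ICH+PTE, ICH and sham from left to right; points are libraries, and bars the mean and SD of 3 mice. The striatal sums of ICH+PTE (478.7 to 635) lie below all sham sums (1278 to 1746), while the thalamic sums of ICH+PTE (88.3 to 140.6) lie above all sham sums (53.0 to 65.4).

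Among voltage-gated alpha subunits, 24 of 25 tested genes were called lower in ICH than in sham, with a median log2 difference of -1.34. In ICH+PTE against ICH, 19 were higher, and against sham 2 were higher and 8 lower. Of all tested genes, 32.1% were called lower in ICH than in sham, and 26.4% higher in ICH+PTE than in ICH. Against sham, 11.3% of all tested genes were higher and 12.1% lower in ICH+PTE. The 2 higher were thus a share close to that of all genes. Summed over the 30 genes of the class, expression was 193, 164 and 206 FPKM in ICH+PTE, 106, 80.5 and 91.8 in ICH and 222, 240.3 and 273 in sham. The ICH sums lay below all others.

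Kv1 subunits shape spike threshold and conduction in axons. Kcna1 stood at 13.8, 7.11 and 14.9 FPKM in ICH+PTE, 4.31, 2.45 and 3.35 in ICH and 6.86, 10.6 and 14.2 in sham. All 3 ICH values lay below every other value, and ICH+PTE and sham overlapped. In log2 units this was -1.49 ± 0.31 (adjusted p = 0.00205) for ICH against sham and 1.65 ± 0.31 (adjusted p = 0.00148) for ICH+PTE against ICH. Kcna2, its usual partner in axons, showed the same order with 14.1, 11.9 and 16.6 FPKM in ICH+PTE, 6.00, 4.87 and 4.85 in ICH and 11.1, 12.2 and 14.2 in sham. It was lower in ICH than in sham with a log2 difference of -1.18 ± 0.14 (adjusted p = 6.22e-05) and higher in ICH+PTE than in ICH by 1.35 ± 0.14 (adjusted p = 5.65e-05). Kcna4, the Kv1 subunit that inactivates fast, had 1.79, 3.54 and 5.36 FPKM in ICH+PTE, 3.95, 2.45 and 3.39 in ICH and 10.5, 8.13 and 11.2 in sham. Here ICH+PTE overlapped with ICH and lay below sham, with log2 differences from sham of -1.48 ± 0.30 (adjusted p = 0.00151) for ICH and -1.45 ± 0.30 (adjusted p = 0.00764) for ICH+PTE. Kcna6 averaged 11.9 ± 2.63 FPKM in ICH+PTE, 10.1 ± 1.69 in ICH and 15.3 ± 0.997 in sham (SD, n = 3 each), a log2 difference of -0.58 ± 0.17 (adjusted p = 0.0111) for ICH against sham.

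Kcna3, known from lymphocytes and microglia as well as neurons, was low throughout, at 0.906, 0.675 and 2.07 FPKM in ICH+PTE, 0.0610, 0.141 and 0.407 in ICH and 0.391, 1.65 and 2.31 in sham. The ICH values overlapped with sham 1. It was called lower in ICH than in sham, -1.35 ± 0.43 (adjusted p = 0.0188), and higher in ICH+PTE than in ICH, 1.23 ± 0.43 (adjusted p = 0.0315). The first call was lost without ICH 1 (-1.20, adjusted p = 0.0602), ICH 2 (-1.3, adjusted p = 0.0512), sham 2 (-1.20, adjusted p = 0.0648), sham 3 (-1.01, adjusted p = 0.0803) or when every gene above 0 was tested (-1.35, adjusted p = 0.0676). The second was lost without ICH+PTE 3 (0.90, adjusted p = 0.12), ICH 1 (1.09, adjusted p = 0.0901), ICH 2 (1.18, adjusted p = 0.0788) or when every gene above 0 was tested (1.23, adjusted p = 0.0986). The ICH mean was 0.203 FPKM, in the libraries where microglia and macrophage markers were highest. The part of any cell type in the Kcna3 values was not tested. With no ICH library at 1 FPKM, the calls of Kcna3 lend no separate support to its fall and rise.

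Kv2 channels carry the main delayed rectifier current of the neuronal soma. The silent subunits Kcnf1, Kcng1, Kcns2 and Kcnv1, which form no channel alone and assemble with Kv2 subunits, held the 2 largest falls of the whole set in ICH against sham. Kcnf1 stood at 10.2, 8.06 and 11.7 FPKM in ICH+PTE, 3.38, 2.76 and 2.69 in ICH and 14.2, 16.9 and 17.6 in sham. Its 3 groups did not overlap, with log2 differences of -2.28 ± 0.15 (adjusted p = 1.78e-06) for ICH against sham, 1.59 ± 0.15 (adjusted p = 2.85e-05) for ICH+PTE against ICH and -0.69 ± 0.15 (adjusted p = 0.0094) for ICH+PTE against sham. Kcnv1 had 3.45, 2.27 and 3.79 FPKM in ICH+PTE, 1.88, 1.70 and 1.80 in ICH and 10.3, 9.46 and 11.8 in sham. The ICH+PTE values lay between the other groups and nearer to ICH, at -2.26 ± 0.16 (adjusted p = 3.08e-06), 0.65 ± 0.16 (adjusted p = 0.00646) and -1.60 ± 0.16 (adjusted p = 0.000242) in the same 3 comparisons.

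Kcng1 averaged 2.13 ± 0.654 FPKM in ICH+PTE, 1.33 ± 0.322 in ICH and 6.33 ± 1.06 in sham (SD, n = 3 each). It was lower than in sham in ICH, -1.91 ± 0.20 (adjusted p = 2.95e-05), and in ICH+PTE, -1.39 ± 0.20 (adjusted p = 0.00166). Between ICH+PTE and ICH its log2 difference was 0.51 ± 0.20 (adjusted p = 0.0543), which passed the threshold without ICH+PTE 2 (0.67, adjusted p = 0.021), ICH 3 (0.62, adjusted p = 0.0485), with a pseudocount of 0.1 (0.63, adjusted p = 0.0488), after quantile normalization (0.58, adjusted p = 0.0428) or with haemoglobin and mitochondrial genes removed (0.72, adjusted p = 0.016). Of the 10 silent subunit genes 8 were tested. Of these, 5 were called lower in ICH against sham, 4 higher in ICH+PTE against ICH and 4 lower in ICH+PTE against sham. The shares of all tested genes in these 3 comparisons were 32.1%, 26.4% and 12.1%. Kcng4, Kcns1 and Kcns3 were called in none of the comparisons.

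Kv3 channels close fast and let neurons fire at high rates, as interneurons and many brainstem and thalamic neurons do. Kcnc1, Kcnc2 and Kcnc4 were each called lower in ICH than in sham and higher in ICH+PTE than in ICH. Kcnc2 stood at 9.88, 9.57 and 12.6 FPKM in ICH+PTE, 3.07, 2.99 and 1.82 in ICH and 5.82, 6.90 and 5.99 in sham. The ICH+PTE values lay above all sham values, and the ICH values below all of them. The log2 difference was -1.13 ± 0.18 (adjusted p = 0.000297) for ICH against sham and 1.85 ± 0.18 (adjusted p = 3.19e-05) for ICH+PTE against ICH. Kcnc1 averaged 10.2 ± 1.17 FPKM in ICH+PTE, 4.61 ± 0.682 in ICH and 10.9 ± 1.82 in sham (SD, n = 3 each), and Kcnc4 7.78 ± 0.553 FPKM in ICH+PTE, 2.39 ± 0.0269 in ICH and 7.72 ± 0.963 in sham. For Kcnc1 and Kcnc4 the ICH+PTE minus sham differences were -0.10 ± 0.15 (adjusted p = 0.675) and 0.02 ± 0.11 (adjusted p = 0.934).

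Kv4 channels carry the transient A-type current of dendrites, and the Kv4-interacting proteins of the Kcnip genes are their calcium-sensing partners. Kcnd2 had 14.1, 13.9 and 19.0 FPKM in ICH+PTE, 12.5, 7.54 and 9.72 in ICH and 26.7, 25.9 and 28.9 in sham, with the 3 groups apart. It fell in ICH against sham with a log2 difference of -1.43 ± 0.17 (adjusted p = 6.28e-05), rose in ICH+PTE against ICH by 0.65 ± 0.17 (adjusted p = 0.00958), and was below sham in ICH+PTE, -0.78 ± 0.17 (adjusted p = 0.0111). Kcnip2, the highest single gene of the set in sham, stood at 30.5, 29.5 and 33.9 FPKM in ICH+PTE, 37.9, 18.4 and 30.2 in ICH and 71.0, 61.9 and 74.2 in sham. ICH+PTE and ICH overlapped, and both lay below all sham values, at -1.13 ± 0.21 (adjusted p = 0.00539) for ICH+PTE against sham and -1.3 ± 0.21 (adjusted p = 0.000423) for ICH against sham. Kcnip4, of the same family, had 15.2, 10.1 and 13.5 FPKM in ICH+PTE, 3.35, 3.13 and 3.72 in ICH and 10.7, 13.8 and 11.4 in sham. Its ICH+PTE values overlapped with sham and lay far above ICH, at 1.77 ± 0.16 (adjusted p = 2.29e-05) for ICH+PTE against ICH, after -1.67 ± 0.16 (adjusted p = 1.32e-05) for ICH against sham. Kcnip1, a family member of interneurons among others, averaged 4.47 ± 0.863 FPKM in ICH+PTE, 1.84 ± 0.288 in ICH and 3.48 ± 0.513 in sham (SD, n = 3 each). In log2 this was -0.77 ± 0.16 (adjusted p = 0.00224) for ICH against sham and 1.08 ± 0.16 (adjusted p = 0.000406) for ICH+PTE against ICH. Kcnip3, which is also a transcriptional repressor, had 12.4 ± 1.59 FPKM in ICH+PTE, 12 ± 1.08 in ICH and 15.8 ± 0.764 in sham. Its fall in ICH against sham, -0.39 ± 0.11 (adjusted p = 0.0133), was not called without ICH 2 (-0.31, adjusted p = 0.0579).

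**Figure D3:**
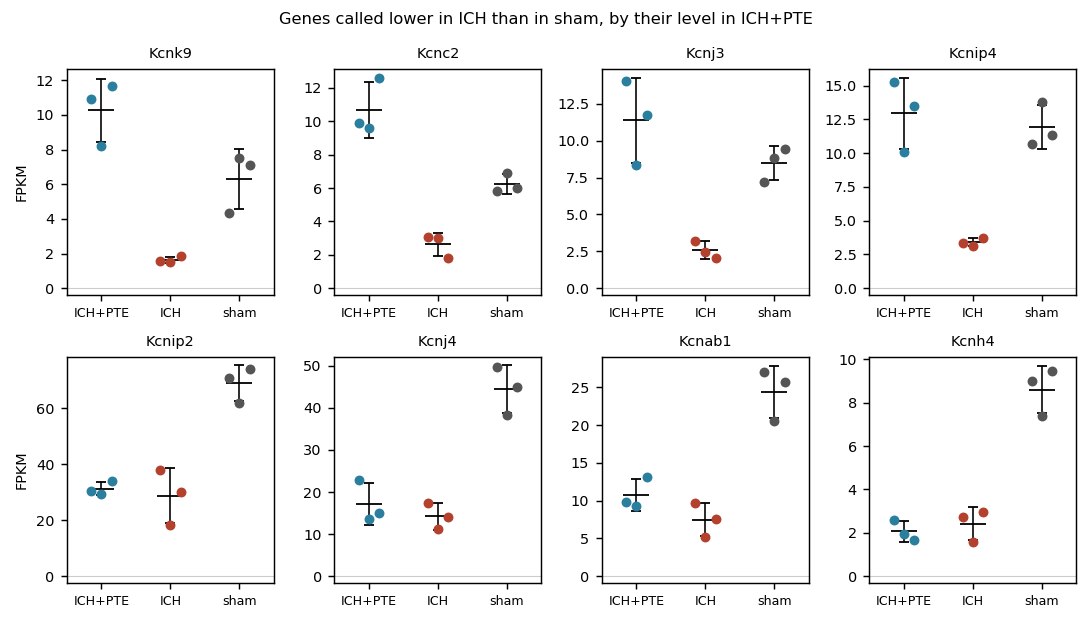
FPKM per library of 8 genes called lower in ICH than in sham, with ICH+PTE, ICH and sham from left to right; points are libraries, and bars the mean and SD of 3 mice. In the top row ICH+PTE lies above ICH and overlaps with or lies above sham; in the bottom row ICH+PTE lies near ICH and below every sham library.

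Kv beta subunits bind the cytoplasmic face of Kv1 channels. Kcnab1 stood at 9.77, 9.31 and 13.2 FPKM in ICH+PTE, 9.64, 5.25 and 7.57 in ICH and 27.0, 20.5 and 25.7 in sham. Every sham value lay above every other value, at -1.67 ± 0.21 (adjusted p = 7.22e-05) for ICH against sham and -1.15 ± 0.21 (adjusted p = 0.0043) for ICH+PTE against sham. Between ICH+PTE and ICH its log2 difference was 0.52 ± 0.21 (adjusted p = 0.0551), not called, but it was called higher without ICH+PTE 2 (0.61, adjusted p = 0.0491), ICH 1 (0.71, adjusted p = 0.0152), after quantile normalization (0.61, adjusted p = 0.0284), with haemoglobin and mitochondrial genes removed (0.77, adjusted p = 0.0108), with array weights (0.59, adjusted p = 0.0369) or with all 3 libraries numbered 1 left out (0.77, adjusted p = 0.0255). Kcnab2, the most abundant of the 3, had 41.6, 27.3 and 26.0 FPKM in ICH+PTE, 16.9, 14.4 and 16.3 in ICH and 32.5, 31.7 and 33.6 in sham. It fell in ICH against sham with a log2 difference of -1.02 ± 0.16 (adjusted p = 0.000306) and rose in ICH+PTE against ICH by 0.94 ± 0.16 (adjusted p = 0.000745). Kcnab3 had 19.4, 11 and 12.1 FPKM in ICH+PTE, 7.64, 8.36 and 4.69 in ICH and 6.5, 7.04 and 5.89 in sham. The ICH values overlapped with sham, at 0.05 ± 0.23 (adjusted p = 0.864), and ICH+PTE lay above all of them, at 0.98 ± 0.23 (adjusted p = 0.00516) against ICH and 1.03 ± 0.23 (adjusted p = 0.0121) against sham. Against sham it was not called with all 3 libraries numbered 1 left out (0.79, adjusted p = 0.0597). A transcript named Kcnab3os lies on the opposite strand of Kcnab3, at a mean of 1.19 FPKM beside 9.18 FPKM for the gene. The libraries keep the strand, but no source used here says whether the authors' quantification used it.

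Kv7 channels carry the M current, which muscarinic receptors shut to raise excitability. Kcnq3 averaged 5.56 ± 0.633 FPKM in ICH+PTE, 3.59 ± 0.706 in ICH and 9.64 ± 1.18 in sham (SD, n = 3 each), and stood below sham in both ICH, -1.32 ± 0.15 (adjusted p = 3.64e-05), and ICH+PTE, -0.74 ± 0.15 (adjusted p = 0.00654). Kcnq5 averaged 7.00 ± 1.93 FPKM in ICH+PTE, 3.29 ± 0.778 in ICH and 11.6 ± 1.75 in sham. This came to a log2 difference of -1.68 ± 0.22 (adjusted p = 8.98e-05) for ICH against sham. Of the ether-a-go-go channels, 6 of 6 tested genes were lower in ICH than in sham, and 4 were higher in ICH+PTE against ICH, beside 32.1% and 26.4% of all tested genes. Kcnh1 had 6.18, 3.97 and 5.75 FPKM in ICH+PTE, 2.40, 1.43 and 2.16 in ICH and 7.06, 9.59 and 11.6 in sham. Its ICH values were the lowest and its sham values the highest without overlap, at -1.99 ± 0.22 (adjusted p = 3.63e-05) for ICH against sham and 1.22 ± 0.22 (adjusted p = 0.00113) for ICH+PTE against ICH. Kcnh4, an Elk channel, stood at 2.60, 1.95 and 1.65 FPKM in ICH+PTE, 2.74, 1.57 and 2.98 in ICH and 8.99, 7.37 and 9.44 in sham. ICH+PTE overlapped with ICH, and its log2 difference from sham, -1.84 ± 0.21 (adjusted p = 0.000467), was the largest fall of the set in that comparison, beside -1.67 ± 0.21 (adjusted p = 7.95e-05) for ICH against sham.

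Kcnh3, the other Elk channel gene called in ICH, averaged 9.22 ± 3.79 FPKM in ICH+PTE, 5.54 ± 1.58 in ICH and 17.5 ± 2.69 in sham (SD, n = 3 each). On the log2 scale this was -1.60 ± 0.27 (adjusted p = 0.000544) for ICH against sham. The gene overlaps Mcrs1 on the opposite strand, which averaged 13.2 FPKM over the 9 libraries beside 10.7 FPKM for Kcnh3, and reads of the overlap cannot be told apart if the strand was not used.

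Inward rectifiers numbered 14, of which 10 were tested. In ICH against sham 7 were lower and 1, Kcnj8, higher, beside 32.1% and 31.6% of all tested genes. In ICH+PTE against ICH 6 were higher and 1 lower, beside 26.4% and 30.5% of all tested genes. In ICH+PTE against sham 3 were lower, beside 12.1% of all tested genes. Their sums were 74.9, 55.8 and 61.2 FPKM in ICH+PTE, 44.4, 32.1 and 35.9 in ICH and 98.2, 86.5 and 94.5 in sham. Through G-protein-gated subunits many transmitter receptors slow neuronal firing. Of these subunits, Kcnj3 and Kcnj9 fell in ICH and rose in ICH+PTE against ICH. Kcnj3 stood at 14, 8.35 and 11.8 FPKM in ICH+PTE, 3.22, 2.46 and 2.04 in ICH and 7.22, 8.81 and 9.42 in sham, with ICH below all other values and ICH+PTE overlapping with sham. In log2 units this was -1.56 ± 0.20 (adjusted p = 8.30e-05) for ICH against sham and 1.94 ± 0.20 (adjusted p = 4.67e-05) for ICH+PTE against ICH. Kcnj9 had 17.6, 14.4 and 14.9 FPKM in ICH+PTE, 6.22, 4.85 and 4.28 in ICH and 14.3, 13.0 and 14 in sham. The log2 difference was -1.36 ± 0.13 (adjusted p = 1.87e-05) for ICH against sham and 1.53 ± 0.13 (adjusted p = 2.28e-05) for ICH+PTE against ICH. Kcnj6 averaged 0.915 ± 0.295 FPKM in ICH+PTE, 0.0619 ± 0.0209 in ICH and 0.812 ± 0.287 in sham (SD, n = 3 each). In log2 this was -1.20 ± 0.24 (adjusted p = 0.00133) for ICH against sham and 1.31 ± 0.24 (adjusted p = 0.00107) for ICH+PTE against ICH. Kcnj6 had no ICH library at 1 FPKM, so its calls lend no separate support to a shared fall and rise.

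Among the strong rectifiers, Kcnj4, abundant in striatal and other forebrain neurons, stood at 22.9, 13.6 and 15.0 FPKM in ICH+PTE, 17.3, 11.1 and 14.1 in ICH and 49.7, 38.4 and 45.1 in sham. All sham values lay above every ICH+PTE and ICH value, which overlapped, at -1.37 ± 0.21 (adjusted p = 0.00182) for ICH+PTE against sham and -1.63 ± 0.21 (adjusted p = 8.28e-05) for ICH against sham. Kcnj2, found in neurons, endothelium and microglia, had 3.62, 3.60 and 4.08 FPKM in ICH+PTE, 3.70, 4.05 and 4.15 in ICH and 6.92, 7.06 and 7.57 in sham. Again ICH+PTE and ICH overlapped below sham, at -0.85 ± 0.10 (adjusted p = 0.000503) and -0.78 ± 0.10 (adjusted p = 8.30e-05). Kcnj16, which lies 38.2 kb from Kcnj2 on chromosome 11 in the deposited coordinates and codes for a subunit known from glia, had 3.01, 4.19 and 3.56 FPKM in ICH+PTE, 2.49, 2.36 and 2.56 in ICH and 1.83, 3.00 and 2.49 in sham. It was called higher in ICH+PTE than in ICH, 0.45 ± 0.17 (adjusted p = 0.0385), and this call was lost without ICH+PTE 2 (0.35, adjusted p = 0.122), ICH+PTE 3 (0.45, adjusted p = 0.08), ICH 1 (0.46, adjusted p = 0.0762), ICH 2 (0.42, adjusted p = 0.103), ICH 3 (0.47, adjusted p = 0.0746), sham 3 (0.45, adjusted p = 0.0527), when every gene above 0 was tested (0.45, adjusted p = 0.0892) or on TPM (0.54, adjusted p = 0.0532).

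The pore subunits of channels closed by ATP, Kcnj11 and Kcnj8, moved in opposite directions in ICH. Kcnj11, the neuronal one, had 6.37, 5.13 and 4.48 FPKM in ICH+PTE, 3.34, 2.38 and 2.90 in ICH and 7.65, 7.50 and 8.07 in sham, with ICH below all others. This came to a log2 difference of -1.3 ± 0.14 (adjusted p = 3.58e-05) for ICH against sham and 0.78 ± 0.14 (adjusted p = 0.0012) for ICH+PTE against ICH. Its sulphonylurea receptor Abcc8 averaged 2.52 ± 0.305 FPKM in ICH+PTE, 1.18 ± 0.175 in ICH and 2.64 ± 0.264 in sham (SD, n = 3 each). On the log2 scale this was -0.91 ± 0.14 (adjusted p = 0.000272) for ICH against sham and 0.85 ± 0.14 (adjusted p = 0.000629) for ICH+PTE against ICH. Kcnj8, the pore subunit of pericytes and smooth muscle, stood at 1.73, 2.52 and 2.11 FPKM in ICH+PTE, 3.29, 3.02 and 3.05 in ICH and 1.73, 1.49 and 1.39 in sham. The 3 ICH values were the highest, and ICH+PTE overlapped with sham 1. Kcnj8 rose in ICH against sham, 0.83 ± 0.14 (adjusted p = 0.000504), and was lower in ICH+PTE than in ICH, -0.48 ± 0.14 (adjusted p = 0.0149). That second call was lost with haemoglobin and mitochondrial genes removed (-0.25, adjusted p = 0.151) or with all 3 libraries numbered 1 left out (-0.33, adjusted p = 0.0733). Between ICH+PTE and sham its log2 difference was 0.36 ± 0.14 (adjusted p = 0.0939), which passed the threshold without ICH+PTE 1 (0.47, adjusted p = 0.0298), with array weights (0.43, adjusted p = 0.0299) or with all 3 libraries numbered 1 left out (0.53, adjusted p = 0.0352). Abcc9, the receptor subunit that pairs with Kcnj8, had 1.32, 1.67 and 1.9 FPKM in ICH+PTE, 1.70, 1.63 and 1.77 in ICH and 0.731, 0.731 and 0.924 in sham. It was higher than in sham in ICH, 0.77 ± 0.15 (adjusted p = 0.00126), and in ICH+PTE, 0.71 ± 0.15 (adjusted p = 0.00868). The 12 markers of mural cells and fibroblasts summed to 71.1, 96.3 and 79.9 FPKM in ICH+PTE, 208, 236 and 311 in ICH and 75.8, 61.3 and 58.0 in sham, with 11 of 12 higher in ICH than in sham and 11 lower in ICH+PTE than in ICH, beside 31.6% and 30.5% of all tested genes. The part of these markers in the Kcnj8 result was not tested.

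Two-pore channels help to set the resting potential as background leaks, and 7 of 14 genes were tested. In ICH against sham 5 were lower and 2 higher, beside 32.1% and 31.6% of all tested genes. In ICH+PTE against ICH 3 were higher and 2 lower, beside 26.4% and 30.5% of all tested genes. The 2 higher in ICH and the 2 lower in ICH+PTE than in ICH were shares close to those of all genes. Against sham, 2 were higher and 2 lower in ICH+PTE, beside 11.3% and 12.1% of all tested genes. Kcnk9, an acid-sensitive leak channel, stood at 10.9, 8.22 and 11.7 FPKM in ICH+PTE, 1.55, 1.5 and 1.85 in ICH and 4.33, 7.50 and 7.10 in sham. The ICH values were the lowest and the ICH+PTE values the highest without overlap. Its rise in ICH+PTE against ICH, 2.32 ± 0.20 (adjusted p = 2.08e-05), was the largest of the set, after -1.64 ± 0.20 (adjusted p = 6.21e-05) for ICH against sham. Kcnk1, the most abundant two-pore gene, had 25.4, 20.6 and 24.1 FPKM in ICH+PTE, 28.2, 19.8 and 20.8 in ICH and 33.8, 31.4 and 33.4 in sham, lower in ICH than in sham with a log2 difference of -0.53 ± 0.14 (adjusted p = 0.00679). Kcnk2, a channel gated by stretch and lipids, had 8.94, 8.05 and 9.51 FPKM in ICH+PTE, 9.93, 4.65 and 7.53 in ICH and 21.6, 16.5 and 21.1 in sham. It was lower than in sham in ICH, -1.41 ± 0.22 (adjusted p = 0.000313), and in ICH+PTE, -1.11 ± 0.22 (adjusted p = 0.00685). The Kcnk2 locus overlaps Pdcd5-ps on the same strand, which averaged 16.7 FPKM over the 9 libraries beside 12 FPKM for Kcnk2, so that reads could be split between them.

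Of 8 genes grouped here with the calcium- and sodium-activated channels, 7 were tested, and Kcnu1, the Slo3 subunit, was not. In ICH against sham 5 were lower and 1, Kcnn4, higher, beside 32.1% and 31.6% of all tested genes. Kcnn4 was tested only because its ICH libraries passed the filter. In ICH+PTE against ICH 5 were higher and 1 lower, beside 26.4% and 30.5% of all tested genes. In that class limma called 0 of the 7 between ICH+PTE and sham, where 1 reached an unadjusted p under 0.05 and 23.4% of all tested genes were called. Kcnma1, the large-conductance channel that ends spikes and limits transmitter release, had 9.32, 6.34 and 11.1 FPKM in ICH+PTE, 3.44, 2.67 and 2.37 in ICH and 8.11, 8.36 and 10.2 in sham. ICH lay below all others and ICH+PTE overlapped with sham, at -1.5 ± 0.19 (adjusted p = 9.35e-05) for ICH against sham and 1.48 ± 0.19 (adjusted p = 0.000185) for ICH+PTE against ICH. Its neuronal beta subunit Kcnmb4 averaged 5.08 ± 0.660 FPKM in ICH+PTE, 3.31 ± 0.361 in ICH and 6.63 ± 0.961 in sham (SD, n = 3 each). In log2 units this was -0.90 ± 0.14 (adjusted p = 0.000267) for ICH against sham and 0.55 ± 0.14 (adjusted p = 0.00685) for ICH+PTE against ICH. Kcnt2, a sodium-activated channel, had 3.25, 1.68 and 2.61 FPKM in ICH+PTE, 0.534, 0.174 and 0.650 in ICH and 2.03, 1.53 and 2.68 in sham. In log2 this was -1.45 ± 0.27 (adjusted p = 0.000888) for ICH against sham and 1.66 ± 0.27 (adjusted p = 0.000552) for ICH+PTE against ICH. Kcnt2 had no ICH library at 1 FPKM, so its calls lend no separate support to that fall and rise. Kcnt1 averaged 22.2 ± 3.22 FPKM in ICH+PTE, 14.5 ± 4.06 in ICH and 26.7 ± 2.08 in sham. This came to a log2 difference of -0.89 ± 0.19 (adjusted p = 0.00196) for ICH against sham and 0.62 ± 0.19 (adjusted p = 0.0163) for ICH+PTE against ICH, the second not called without ICH+PTE 1 (0.51, adjusted p = 0.0573) or when every gene above 0 was tested (0.62, adjusted p = 0.0532).

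Small-conductance channels follow the spike with a slow afterhyperpolarization. Kcnn2 averaged 1.96 ± 0.145 FPKM in ICH+PTE, 1.17 ± 0.143 in ICH and 2.39 ± 0.232 in sham (SD, n = 3 each). On the log2 scale this was -0.79 ± 0.13 (adjusted p = 0.000446) for ICH against sham and 0.56 ± 0.13 (adjusted p = 0.00456) for ICH+PTE against ICH. Kcnn3 averaged 4.30 ± 1.31 FPKM in ICH+PTE, 2.43 ± 0.462 in ICH and 5.93 ± 0.818 in sham. The log2 difference was -1.14 ± 0.20 (adjusted p = 0.000666) for ICH against sham and 0.69 ± 0.20 (adjusted p = 0.0141) for ICH+PTE against ICH. The second call of Kcnn3 was lost without ICH+PTE 3 (0.49, adjusted p = 0.0501) or ICH 2 (0.55, adjusted p = 0.059). Kcnn1, at 1.91 ± 0.248 FPKM in ICH+PTE, 1.57 ± 0.350 in ICH and 1.92 ± 0.107 in sham, was called in none of the comparisons. For ICH against sham it passed the threshold with haemoglobin and mitochondrial genes removed (-0.47, adjusted p = 0.0222), with array weights (-0.30, adjusted p = 0.0329) or with all 3 libraries numbered 1 left out (-0.41, adjusted p = 0.0358).

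The 5 genes called higher in ICH than in sham were Kcnn4, Kcnk6, Kcnk13, Kcnj8 and Kcne4, and 4 of them were lower in ICH+PTE than in ICH. Kcnn4, the intermediate-conductance channel of immune and red blood cells, stood at 0.135, 0.275 and 0.237 FPKM in ICH+PTE, 1.55, 2.40 and 2.99 in ICH and 0.108, 0.0685 and 0.120 in sham. Every ICH library lay above all libraries of the other 2 groups. In log2 units this was 2.2 ± 0.22 (adjusted p = 1.97e-05) for ICH against sham and -1.95 ± 0.22 (adjusted p = 7.89e-05) for ICH+PTE against ICH, and 0.25 ± 0.22 (adjusted p = 0.433) for ICH+PTE against sham. Kcnn4 passed the filter through its ICH libraries alone, so its calls and its place in the counts lend no separate support to that rise. Kcnk6, a two-pore channel through which mouse macrophages lose potassium when their inflammasome is switched on, had 2.38, 3.96 and 3.64 FPKM in ICH+PTE, 6.07, 7.22 and 6.26 in ICH and 1.21, 2.14 and 1.44 in sham. The 3 groups did not overlap, with ICH+PTE in between, at 1.76 ± 0.20 (adjusted p = 4.02e-05) for ICH against sham, -0.90 ± 0.20 (adjusted p = 0.00355) for ICH+PTE against ICH and 0.87 ± 0.20 (adjusted p = 0.0128) for ICH+PTE against sham. Kcnk13, the two-pore channel of resting microglia, had 2.09, 4.25 and 3.84 FPKM in ICH+PTE, 8.83, 11.8 and 8.12 in ICH and 5.27, 3.76 and 3.88 in sham. The ICH values lay above all others, and ICH+PTE overlapped with sham, at 1.07 ± 0.23 (adjusted p = 0.00257) for ICH against sham and -1.41 ± 0.23 (adjusted p = 0.000672) for ICH+PTE against ICH.

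Kcne4, a single-span subunit that damps several Kv channels, had 1.17, 0.859 and 1.62 FPKM in ICH+PTE, 1.02, 0.788 and 0.847 in ICH and 0.186, 0.368 and 0.301 in sham. Sham lay below all other values, and ICH+PTE overlapped with ICH. It was higher than in sham in ICH+PTE, 1.11 ± 0.20 (adjusted p = 0.00457), and in ICH, 0.82 ± 0.20 (adjusted p = 0.00505), and the second call was lost with all 3 libraries numbered 1 left out (0.66, adjusted p = 0.0538). Kcne4 passed the filter through ICH+PTE and ICH libraries alone. Its calls and its place in the counts thus lend no separate support to these rises. With a mean of at least 1 FPKM as the filter, or with haemoglobin and mitochondrial genes removed, Kcne4 was too low to be tested. Beside these rises, the 16 markers of microglia and macrophages summed to 552, 1255 and 870.4 FPKM in ICH+PTE, 11340, 14610 and 12620 in ICH and 488, 591 and 407 in sham, with 15 of 16 higher in ICH against sham and 16 of 16 lower in ICH+PTE against ICH. The shares of all tested genes were 31.6% and 30.5%. The ICH sums were mostly Spp1 (mean 5266 FPKM in ICH) and Lyz2 (2734). The marker not called higher in ICH was P2ry12 (0.26 ± 0.15, adjusted p = 0.145). Neutrophil markers summed to 29.7, 26.9 and 15.0 FPKM in ICH+PTE, 20.7, 28.4 and 32.8 in ICH and 0.863, 0.790 and 1.48 in sham, and erythroid markers to 30.5, 33.6 and 266 FPKM in ICH+PTE, 60.5, 72.4 and 92.3 in ICH and 32.5, 25.9 and 12.2 in sham. The part of any of these cells in the 5 genes was not tested.

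**Figure D4:**
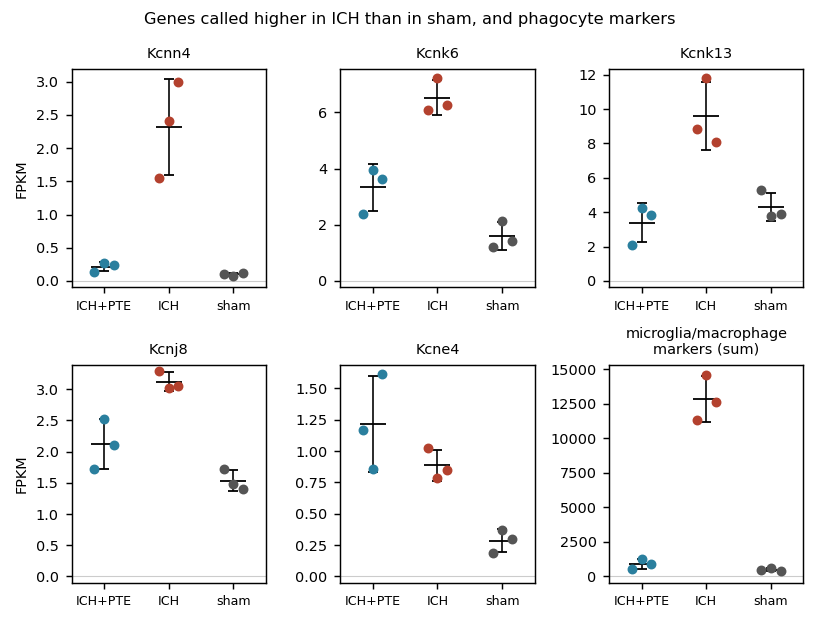
FPKM per library of the 5 potassium channel genes called higher in ICH than in sham, and the summed FPKM of 16 microglia and macrophage markers, with ICH+PTE, ICH and sham from left to right; points are libraries, and bars the mean and SD of 3 mice. Kcnn4 and the marker sum are highest in the 3 ICH libraries, while Kcne4 lies above every sham library in both ICH+PTE and ICH.

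The promoters of the risen genes are shown because they are the members that went against the rest of the set. RefSeq (GRCm38.p6) gave a promoter, from 250 bases before to 50 bases after the start, for 4 of the 5. They are read 5′ to 3′ on the gene's own strand, and capitals mark a match to 1 of 3 motifs searched on both strands: AP-1 (TGANTCA), PU.1 (GAGGAAG), a factor of macrophages, and the antioxidant response element (TGACNNNGC). The motifs were chosen with these results known.
Kcnn4 (chr7:24370013-24370312, plus strand): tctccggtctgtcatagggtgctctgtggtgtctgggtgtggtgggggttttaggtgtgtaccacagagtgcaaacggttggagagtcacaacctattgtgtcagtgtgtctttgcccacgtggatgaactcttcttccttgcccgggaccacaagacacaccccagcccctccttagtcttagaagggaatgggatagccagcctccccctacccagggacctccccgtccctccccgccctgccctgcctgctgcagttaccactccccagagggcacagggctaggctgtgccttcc
Kcnk13 (chr12:99964249-99964548, plus strand): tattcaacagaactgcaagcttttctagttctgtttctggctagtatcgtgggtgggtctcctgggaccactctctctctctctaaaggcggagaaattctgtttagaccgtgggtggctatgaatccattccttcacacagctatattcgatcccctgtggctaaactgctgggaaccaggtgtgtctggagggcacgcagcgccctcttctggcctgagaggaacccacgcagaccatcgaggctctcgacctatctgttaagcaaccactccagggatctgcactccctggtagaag
Kcnj8 (chr6:142571565-142571864, minus strand): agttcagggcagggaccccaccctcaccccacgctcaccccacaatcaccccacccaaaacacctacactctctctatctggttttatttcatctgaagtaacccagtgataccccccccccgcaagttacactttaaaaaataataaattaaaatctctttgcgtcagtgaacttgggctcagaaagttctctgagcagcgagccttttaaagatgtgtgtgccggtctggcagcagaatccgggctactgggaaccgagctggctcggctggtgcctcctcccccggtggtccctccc
Kcne4 (chr1:78816661-78816960, plus strand): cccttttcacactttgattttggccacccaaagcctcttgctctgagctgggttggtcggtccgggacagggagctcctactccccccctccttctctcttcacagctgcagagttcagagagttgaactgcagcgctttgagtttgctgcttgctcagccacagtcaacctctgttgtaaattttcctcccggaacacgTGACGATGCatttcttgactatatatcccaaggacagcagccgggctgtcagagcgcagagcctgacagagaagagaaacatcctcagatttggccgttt
The Kcne4 promoter held 1 match to the antioxidant response element, which 12.5% of 27025 promoters hold. None of these 4 promoters held a match to the AP-1 or the PU.1 letters, which occur in 7.93% and 13.5% of promoters. These are matches of letters, not shown binding sites.

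A pair of genes varied within the groups, along with the choroid plexus marker sum of the libraries, which was mostly Ttr where it was high. Kcnj13, an inward rectifier of the choroid plexus epithelium, stood at 1.21, 0.0666 and 0.138 FPKM in ICH+PTE, 1.71, 0.0638 and 0.0872 in ICH and 4.36, 1.86 and 0.406 in sham. Kcne2, a partner subunit in the same epithelium, had 0.924, 0.278 and 0.252 FPKM in ICH+PTE, 2.37, 0.158 and 0.229 in ICH and 3.71, 1.21 and 0.423 in sham. Within each group the library with the highest choroid plexus sum had the highest value of both genes. At the settings used for all other genes, neither gene was called in any comparison: for ICH against sham Kcnj13 gave -1.28 ± 0.70 (adjusted p = 0.134) and Kcne2 -0.76 ± 0.64 (adjusted p = 0.319). Kcnj13 passed the threshold in that comparison without ICH 1 (-1.92, adjusted p = 0.0329), sham 3 (-1.91, adjusted p = 0.0366), with array weights (-1.43, adjusted p = 0.0265) or with all 3 libraries numbered 1 left out (-1.35, adjusted p = 0.033). Kcne2 did so without ICH 1 (-1.44, adjusted p = 0.0481).

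**Figure D5:**
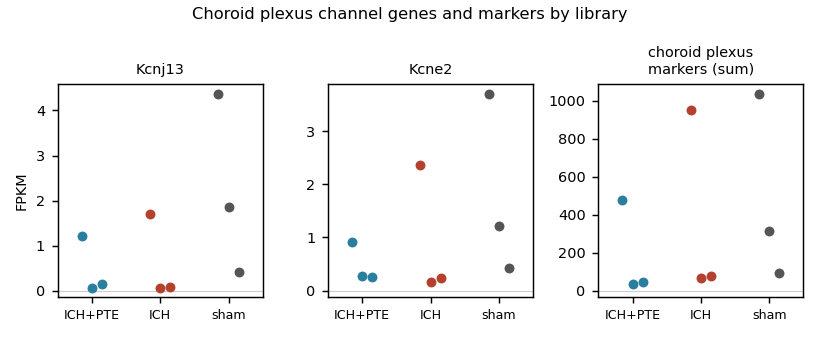
FPKM per library of Kcnj13 and Kcne2 and the summed FPKM of 10 choroid plexus markers, with ICH+PTE, ICH and sham from left to right; points are libraries 1 to 3 in order. In each group library 1 is the highest in all 3 panels.

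The 24 genes that were not tested were Kcna7, Kcna10, Kcne1, Kcne3, Kcng3, Kcnh6, Kcnh8, Kcnj1, Kcnj5, Kcnj14, Kcnj15, Kcnk5, Kcnk7, Kcnk10, Kcnk12, Kcnk15, Kcnk16, Kcnk18, Kcnmb1, Kcnmb2, Kcnmb3, Kcnq1, Kcnu1 and Kcnv2. Of these, 21 stayed under 1 FPKM in every library, and the highest single value among the 24 was 1.53 FPKM. They include the BK subunit of smooth muscle, Kcnmb1, whose locus overlaps that of Kcnip1 on the opposite strand.

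Genes outside the Kcn names that work with these channels were read from lists. The 22 listed partners, 19 of them tested, include the Kv4 partners of the dipeptidyl peptidase family and scaffolds that hold Kv channels. Against sham, 15 were lower and 1 higher in ICH, beside 32.1% and 31.6% of all tested genes. Against ICH, 14 were higher in ICH+PTE, beside 26.4% of all tested genes. Against sham, 1 was higher and 2 lower in ICH+PTE, beside 11.3% and 12.1% of all tested genes. These last counts were no larger shares than those of all genes. Dpp10, a Kv4 partner, had 7.83, 4.10 and 6.71 FPKM in ICH+PTE, 1.49, 1.22 and 1.20 in ICH and 5.00, 6.52 and 6.43 in sham. In log2 this was -1.84 ± 0.20 (adjusted p = 3.61e-05) for ICH against sham and 1.86 ± 0.20 (adjusted p = 7.01e-05) for ICH+PTE against ICH. All 4 hyperpolarization-activated channels (Hcn genes) were lower in ICH than in sham, with 2 higher in ICH+PTE than in ICH and 2 lower in ICH+PTE than in sham. The shares of all tested genes were 32.1%, 26.4% and 12.1% in the same order.

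Among potassium pumps and cotransporters, 11 were tested. In ICH against sham 4 were higher and 5 lower, beside 31.6% and 32.1% of all tested genes. In ICH+PTE against ICH 5 were higher and 3 lower, beside 26.4% and 30.5%. The 4 higher in ICH and the 3 lower in ICH+PTE than in ICH were shares close to those of all genes. Slc12a5, the neuronal potassium-chloride cotransporter, had 48.3, 37.4 and 46.4 FPKM in ICH+PTE, 21.9, 14.9 and 20.9 in ICH and 58.3, 65.2 and 70.7 in sham. On the log2 scale this was -1.74 ± 0.16 (adjusted p = 1.08e-05) for ICH against sham and 1.19 ± 0.16 (adjusted p = 0.000187) for ICH+PTE against ICH. Slc12a7, a potassium-chloride cotransporter of other tissues, went the other way with 0.735, 1.3 and 0.879 FPKM in ICH+PTE, 2.53, 2.90 and 2.97 in ICH and 0.503, 0.483 and 0.501 in sham. The log2 difference was 1.73 ± 0.17 (adjusted p = 1.66e-05) for ICH against sham and -1.18 ± 0.17 (adjusted p = 0.000274) for ICH+PTE against ICH.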

How the data were processed

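Total RNA of 9 mouse brains was poly(A)-selected and made into strand-keeping libraries, per the labels' protocols. The authors deposited 1 table of FPKM values per gene and library; per the submitters' processing notes, cutadapt 1.9, HISAT2 2.0.4 and StringTie 1.3.4d were used, with no genome build named in the sources used here. Start and end matched GENCODE M21 for 80 of the 91 members and for 91.7% of 36224 shared genes. Low values were not whole multiples of 1 read, so the depth is unknown and no counting interval is given. Groups came from the labels, 3 mice each. The 15376 genes that reached 1 FPKM in 3 libraries or more were fitted as log2(FPKM + 0.5) with limma 3.58.1 in R 4.3.3, with 1 mean per group and a spread shared over the 9 libraries (6 residual degrees of freedom, trended prior), with Benjamini-Hochberg adjustment and a threshold of 0.05. The steps were tested on simulated data.

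The genes named with values were the 10 largest called rises and falls of each comparison with a mean of at least 1 FPKM in the higher group, the highest gene of each subfamily, and genes set by hand for a known role, 53 in all. Other members are named only where a count is spelled out, or as chosen after their values were seen. The members, gene lists and marker lists were chosen with earlier results of these data known. Alternatives changed the filter, pseudocount, scaling, weights, samples in the fit and each library in turn. Some tested genes enter the counts and sums but are not reported here by name. Sequences are from RefSeq.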

Additional observations from a re-analysis of the deposited data

How the results depend on the processing

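Of the 52 named and tested genes, none of the values called in the full comparison changed sign under any alternative run. Of 1087 values per comparison, 7 calls were lost and 9 gained for ICH against sham, 22 and 22 for ICH+PTE against ICH, and 68 and 19 for ICH+PTE against sham; values called in neither setting changed sign 14, 20 and 32 times. With a mean of at least 1 FPKM as the filter, 3 members were called higher in ICH than in sham, since Kcnn4 and Kcne4 were then not tested. For ICH+PTE against sham, 3 members were called higher on TPM and 3 with haemoglobin and mitochondrial genes removed; the cause was not tested. Leaving out 1 library at a time gave 8511 to 10361 calls over all genes for ICH against sham (members 5 higher throughout and 49 to 53 lower), 7221 to 8765 for ICH+PTE against ICH (37 to 43 higher and 4 lower throughout) and 2125 to 3712 for ICH+PTE against sham (3 to 7 higher and 12 to 20 lower). The last fell to 2258 without sham 2 and 2125 without sham 3, and the members called lower to 12 without sham 3; 3 were called higher without sham 1 and without sham 3.

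Same-numbered libraries shared no stated source, and the correlations of their deviations over genes ranged from 0.00313 to 0.252, with 1 of 9 libraries closest to its own number. With the replicate number as a block, 9925, 8945 and 3833 genes were called for ICH against sham, ICH+PTE against ICH and ICH+PTE against sham, and the members numbered 5 higher and 53 lower, 45 and 4, and 6 and 23. Under the block Kcnj13 was also called lower than in sham in ICH (-1.28, adjusted p = 0.00611) and in ICH+PTE (-1.36, adjusted p = 0.015), and Kcne2 in ICH+PTE (-0.997, adjusted p = 0.042). Library 1 of each group had the highest value of both genes, so a block by number takes that spread out of the error. These calls thus lend no separate support to a group difference. Kcne2 also had no ICH+PTE library at 1 FPKM. Called higher in ICH+PTE than in ICH were Kcnab1 (0.52, adjusted p = 0.0183), Kcng1 (0.51, adjusted p = 0.0184) and Kcnh3 (0.66, adjusted p = 0.0286), and Kcnj16 was called higher in ICH+PTE than in sham (0.49, adjusted p = 0.0408).

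With 3 mice a group the p-values measure the spread between these mice. Depth is unknown, and genes with fewer than 3 libraries at 1 FPKM or more were not tested.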
